A study of Danio rerio with 4 samples.

Results

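The genes *tnmd*, *itga11b*, *col12a1a* and *col12a1b* are known from tendon and other dense connective tissue, and 4 of the 756 genes in the deposited table carry these symbols. The table lists genes by a comparison of sorted cell groups from zebrafish larval heads at 48 hpf (hours post fertilization), and every listed gene had an adjusted p (Q value) under 0.05 there. The 4 genes were thus chosen by their measured difference between these same libraries, so their levels and fold changes are given as a description, with no test. Both groups came from dissected heads of wildtype larvae with a pair of reporters. The first, *TgBAC(apln:Venus-PEST)*, makes a short-lived Venus protein from a BAC with the regulatory region of *apln*, the gene of the ligand Apelin, and the other, *Tg(kdrl:Hsa.HRAS-mCherry)*, marks endothelial cells with mCherry. The Venus positive group held Venus positive, mCherry negative cells (2 libraries) and the double negative group held cells with neither colour (2 libraries), so mCherry positive endothelial cells were gated out of both. Each group is a mixture of cell types, and the comparison asks what the non-endothelial *apln* reporter cells of the head express beside the remaining cells.

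Tendon joins muscle to skeleton through bundles of collagen fibrils, and fibroblast-like cells lay these down and hold on to them. Tenomodulin (*tnmd*) is a membrane glycoprotein with a BRICHOS domain and is widely used as a marker of differentiated tendon cells. Integrin alpha 11 pairs with integrin beta 1 to form a receptor through which mesenchymal cells grip fibrillar collagen, and the table holds both of its zebrafish paralogs, *itga11a* and *itga11b*. Collagen XII, encoded in zebrafish by the paralogs *col12a1a* and *col12a1b*, belongs to the FACIT collagens, which sit on the surface of fibrils and link them to the surrounding matrix. It is also made in fascia, skin and other connective tissue, so none of these genes alone names a tendon cell.

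All 4 genes had more reads in both Venus positive libraries than in both double negative libraries, and they fell into a pair with a large difference and a pair with a smaller one. *tnmd* was 52.0-fold and *itga11b* 21.8-fold higher in the group means, whereas *col12a1a* was 4.51-fold and *col12a1b* 4.69-fold higher. Over the whole table, both Venus positive libraries lay above both double negative libraries for 64.2% of the 756 genes. Since membership rested on this comparison, nothing is read from the 4 of 4 beside that share. In sorted mixtures, more cells that express a gene and more RNA per cell cannot be told apart.

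The reads of the listed genes summed to 876579 to 1175560 per library, which is not the depth of the library, because the table holds only selected genes. The values below are normalized read counts, that is, reads divided by the size factor of the library. The check of the sort was *apln* itself, which had 651 and 802 normalized read counts in double negative libraries 1 and 2 against 11006 and 8899 in Venus positive libraries 3 and 4 (numbers as in the table). The labels leave unsaid if replicate libraries stem from different clutches or different sorts, so the spread between them, and with it any p-value, may be technical only. Of the lists of other cell types, erythrocyte genes (15 of 16 analysed, all lower) summed to 218874 and 397605 normalized read counts in double negative cells but to 5685 and 4004 in Venus positive cells. Epidermal genes (12 of 21 analysed, 10 lower and 2 higher) summed to 375143 and 313060 against 43522 and 67218. These sums moved with the groups as the 4 genes did, in the opposite direction, and their part in the fold changes was not tested. Over all 754 genes tested, 35.8% were lower and 64.2% higher. Every gene had been selected on this comparison, so nothing is read from the counts of lower and higher genes in these lists.

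*tnmd* had 45.2 and 52.1 normalized read counts in double negative libraries 1 and 2, and 2826 and 2238 in Venus positive libraries 3 and 4. The gap between the groups was far wider than the gap within either, since the lowest Venus positive value was 42.9-fold above the highest double negative value. The group means were 2532 ± 415 in Venus positive and 48.7 ± 4.92 in double negative cells (SD, n = 2 libraries each). The fitted log2 fold change was 5.70 (SE 0.55), the 14th largest increase of the 754 genes fitted. The double negative level was thus 1.92% of the Venus positive level, while the median over all 485 genes with a higher Venus positive level was 19.0%, and 2.89% of these genes had a smaller share than *tnmd*. The double negative values rest on 55 and 51 reads, with exact Poisson 95% intervals of 34.0 to 58.8 and 38.8 to 68.6 normalized read counts. These intervals overlap, which by itself does not show that the 2 libraries were alike, and their difference was not tested. Transcripts of the gene were counted in both. Such intervals cover counting error only. The reads carry no molecular identifiers, so amplified copies count as separate reads and the intervals can be too narrow even for that.

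*itga11b*, the collagen receptor subunit, had 41.1 and 24.5 normalized read counts in double negative libraries 1 and 2, and 807 and 623 in Venus positive libraries 3 and 4. The groups did not overlap, with a 15.2-fold step from the highest double negative to the lowest Venus positive value. Means were 715 ± 130.1 and 32.8 ± 11.7 (SD, n = 2), and the fitted log2 fold change was 4.43 (SE 0.64), 30th of 754. Of the 4 genes, *itga11b* had the fewest double negative reads, 50 and 24, and their exact Poisson 95% intervals, 30.5 to 54.2 and 15.7 to 36.5 normalized read counts, overlapped. The size of its fold change therefore hangs on few reads, and it went from 4.12 to 4.86 on the log2 scale when either double negative library was left out.

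The paralog *itga11a* is in the table too, with 160 and 256 normalized read counts in double negative cells against 1435 and 1302 in Venus positive cells (log2 fold change 2.72). *itga11b* therefore made up 20.4% and 8.76% of the reads of the pair in double negative libraries 1 and 2, and 36.0% and 32.4% in Venus positive libraries 3 and 4. Its share was higher in both Venus positive libraries, yet *itga11a* had more reads than *itga11b* in all 4 libraries. These shares are of reads, not corrected for transcript length.

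**Figure D1:**
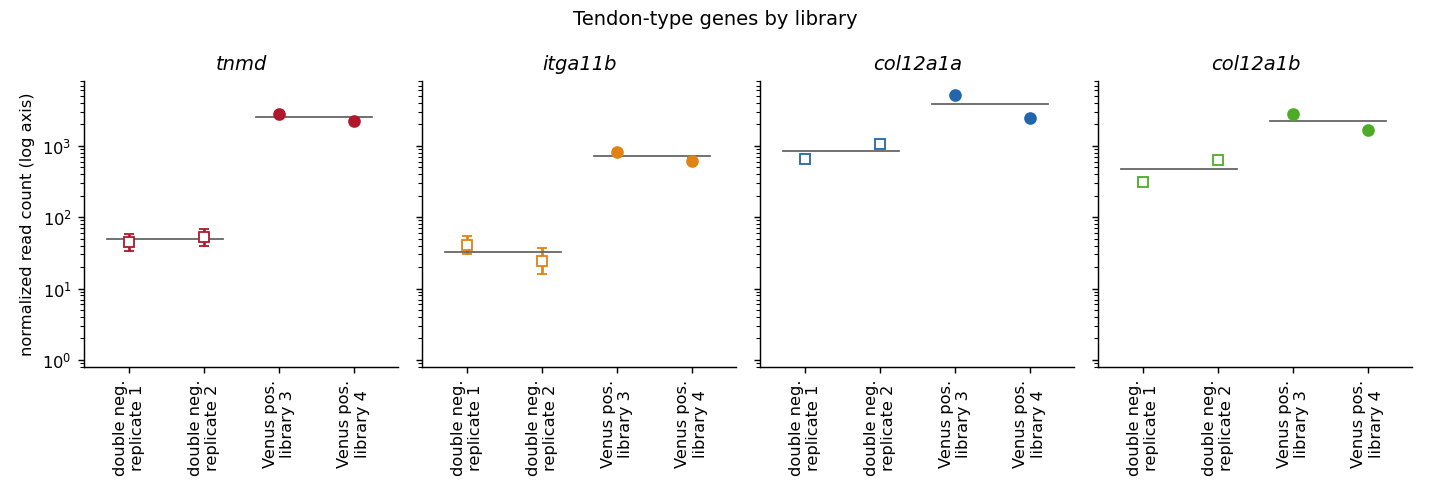
Normalized read count (log axis) of *tnmd*, *itga11b*, *col12a1a* and *col12a1b* in each library, with open squares for double negative and filled circles for Venus positive libraries, grey lines at the group means and bars for the exact Poisson 95% interval of the reads, hidden where they are smaller than the symbol. The Venus positive values of *tnmd* lie at 2826 and 2238 against 45.2 and 52.1, a wider step than for *col12a1a*, which goes from 653 and 1045 to 5164 and 2488.

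*col12a1a* had 653 and 1045 normalized read counts in double negative libraries 1 and 2, and 5164 and 2488 in Venus positive libraries 3 and 4. The groups were apart, but the Venus positive libraries themselves differed 2.08-fold, close to the 2.38-fold step between the groups at their nearest points. Means were 3826 ± 1892 and 849 ± 277 (SD, n = 2), with a fitted log2 fold change of 2.17 (SE 0.50), 288th of 754. It went from 1.55 without Venus positive library 3 to 2.60 without library 4, so 1 library decided much of its size.

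*col12a1b* had 309 and 639 normalized read counts in double negative libraries 1 and 2, and 2764 and 1678 in Venus positive libraries 3 and 4. Here the double negative libraries differed 2.07-fold and the Venus positive libraries 1.65-fold, and the nearest values of the groups lay 2.63-fold apart. Means were 2221 ± 768 and 474 ± 233 (SD, n = 2), and the fitted log2 fold change was 2.23 (SE 0.51), 274th of 754. It ranged from 1.80 without double negative library 1 to 2.85 without double negative library 2. Set beside the other listed genes, both collagen XII genes were ordinary, since the median log2 fold change was 2.39 over the 484 higher genes fitted. Their double negative levels were 22.2% (*col12a1a*) and 21.3% (*col12a1b*) of the Venus positive levels, near the median of 19.0%.

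**Figure D2:**
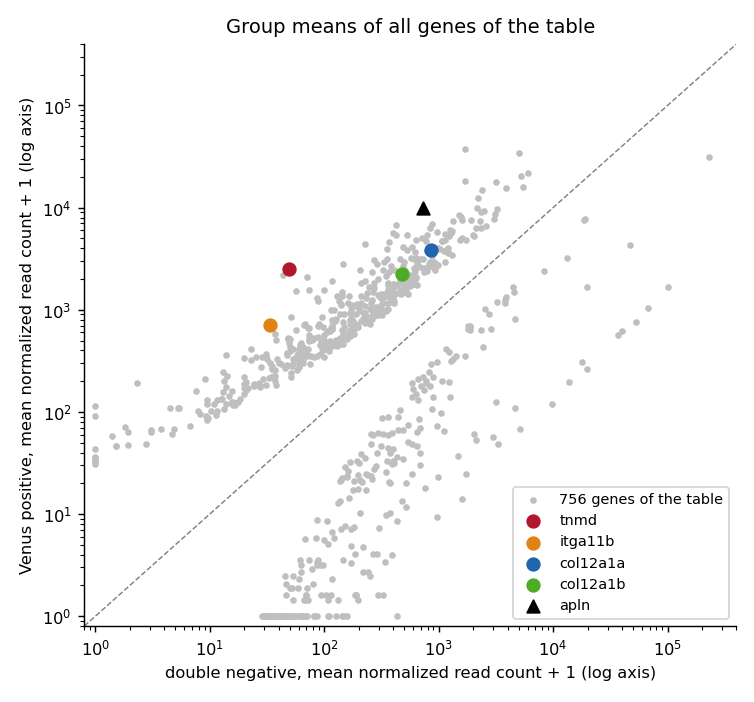
Mean normalized read count + 1 of each of the 756 listed genes in double negative (x axis) and Venus positive libraries (y axis), both on log axes, with the 4 genes and *apln* marked and a dashed line at equal levels. *tnmd* (48.7 against 2532) and *itga11b* (32.8 against 715) lie at the upper left edge of the higher genes, while *col12a1a* (849 against 3826) and *col12a1b* (474 against 2221) lie within them.

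The collagen XII paralogs divided their reads in a similar way in the 2 groups. *col12a1a* took 67.9% and 62.1% of their summed normalized read counts in double negative libraries 1 and 2, and 65.1% and 59.7% in Venus positive libraries 3 and 4. The shares of the groups interleaved, and *col12a1a* had more reads than *col12a1b* in every library, by 1.48-fold to 2.11-fold. The log2 ratio of *col12a1a* to *col12a1b* was 0.16 lower in Venus positive cells (difference -0.16), less than the pooled SD of 0.25 between libraries of a group. Left-out libraries moved this difference between -0.35 and 0.03. The summed level, by contrast, went from 962 and 1684 to 7928 and 4166 normalized read counts, so each group spanned a range of its own.

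All 4 genes had more normalized reads in Venus positive library 3 than in library 4, and so did 341 of the 485 higher genes (70.3%), with a median ratio of 1.301. *tnmd* (1.26) and *itga11b* (1.295) stood near that median, whereas *col12a1b* (1.65) and *col12a1a* (2.08) lay above it, *col12a1a* also above the upper quartile of 1.85. In the double negative group, library 2 was above library 1 for 327 of the 485 higher genes (67.4%; median ratio 1.24). The ratio of library 2 to library 1 was 1.15 for *tnmd*, 1.60 for *col12a1a* and 2.07 for *col12a1b*, but 0.597 for *itga11b*, the member with the fewest reads. The 4 genes thus shared their order in the Venus positive group, while in the double negative group *itga11b* differed from the other 3. That difference rests on 50 and 24 reads and was not tested.

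Levels of different genes can be set side by side only per length, and for this the table gives TPM, the abundance of a gene's transcripts corrected for their length and scaled to the same total in each library. In the double negative libraries 1 and 2, the TPM was 7.17 and 9.99 for *col12a1a*, 3.89 and 6.5 for *col12a1b*, 2.83 and 2.47 for *tnmd*, and 1.16 and 0.53 for *itga11b*. No 2 neighbours in that order overlapped between libraries. In Venus positive cells the mean TPM given by the table was 153.5 for *tnmd*, 47.07 for *col12a1a*, 28.13 for *col12a1b* and 19.6 for *itga11b*. *tnmd* thus moved from the third to the first place among the 4, and the order of the other 3 was the same in both groups.

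The deposited TPM of single Venus positive libraries was not used. Instead, the mean TPM of the Venus positive group was divided between its 2 libraries in proportion to their reads. Library scales were fitted on 348 genes, and the same transcript length was assumed in both libraries. This gave 153.6 and 153.4 for *tnmd* in libraries 3 and 4, 58.6 and 35.6 for *col12a1a*, 31.9 and 24.4 for *col12a1b*, and 19.9 and 19.3 for *itga11b*. Neighbours in the order did not overlap here either, although *col12a1a* in library 4 came within reach of *col12a1b* in library 3. That gap and the Venus positive ratios that follow rest on the equal length assumed. Between the double negative libraries, the transcript length behind the TPM of *col12a1a* differed by 0.20 on the log2 scale. On the TPM scale library 3 was no longer ahead for *tnmd* (ratio 1.00) and hardly for *itga11b* (1.03), while it stayed ahead for *col12a1a* (1.65) and *col12a1b* (1.31). The ratio of double negative library 2 to 1 was 0.873 for *tnmd* in TPM and 1.15 in normalized read counts, so the order of these 2 libraries turned with the scale. The gaps within a group thus changed with the scale, and among the Venus positive gaps those of the collagen XII genes stayed the widest.

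**Figure D3:**
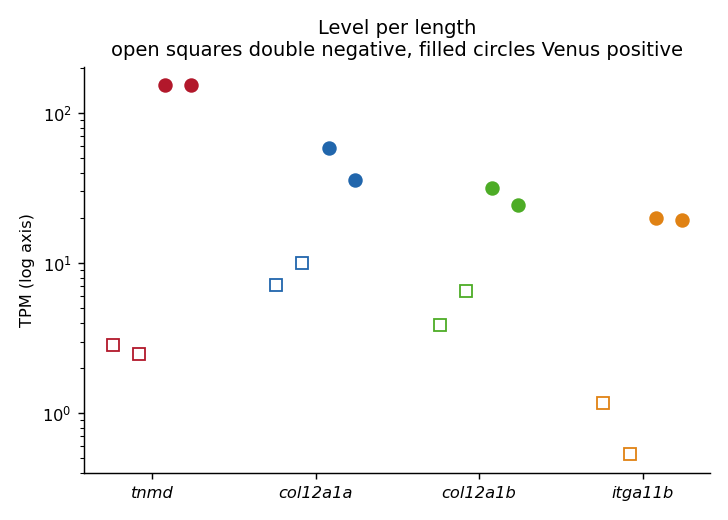
Level per length (TPM, log axis) of the 4 genes in each library, with open squares for double negative libraries 1 and 2 and filled circles for Venus positive libraries 3 and 4, whose values divide the group mean by reads. *tnmd* is the third in the double negative libraries (2.83 and 2.47) and first in the Venus positive libraries (153.6 and 153.4).

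Ranked among the 485 higher genes by mean TPM in Venus positive cells, *tnmd* stood at the 83.1 percentile, *col12a1a* at 57.1, *col12a1b* at 41.4 and *itga11b* at 32.2. In double negative cells the percentiles were 30.5, 57.5, 44.1 and 14.2. *tnmd* was thus an abundant transcript of the Venus positive cells within this list (median TPM of the higher genes 37.3), while *itga11b* was a low one in both groups despite its large fold change. Both collagen XII genes held nearly the same place in the 2 groups.

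The count and TPM columns together also hold the transcript length that RSEM assigned to a gene, an average over its isoforms weighted by their estimated use. Reads per TPM, on the log2 scale and relative to the library, differed between the double negative libraries by 0.20 for *col12a1a* and 0.091 for *col12a1b*, against -0.0035 for *tnmd* and 0.013 for *itga11b*. Of 672 genes with at least 20 reads in both libraries, 520 stayed within 0.02 and 21 differed by more than *col12a1a*. The assigned length of *col12a1a* thus varied more between replicate libraries than that of most listed genes. Between the groups the difference was -0.15 for *col12a1a*, -0.029 for *col12a1b*, 0.0005 for *tnmd* and 0.0025 for *itga11b*. Of 458 genes with at least 20 reads in each double negative and 100 in each Venus positive library, 360 stayed within 0.02 and 14 differed by more than *col12a1a*. The difference of *col12a1a* between the groups was smaller than its 0.20 between the double negative libraries, the sole replicate gap computed here. It was not tested.

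The 3 listed genes with the pattern most like that of each member were found by the root mean square difference of log2(normalized read count + 1), centred on each gene's own mean, over the 4 libraries. For *col12a1b* these were *emilin2a* (0.017), *smad9* (0.059) and *mrc2* (0.073). *emilin2a*, which encodes an extracellular glycoprotein of the elastic fibre system, had 32.0 and 67.5 normalized read counts in double negative and 300.4 and 176.1 in Venus positive libraries. *smad9* encodes a transducer of Bmp signals and *mrc2* a receptor for collagen uptake. For *col12a1a* the nearest were *tpm4a* (0.039), a tropomyosin gene, *dgkh* (0.062), a diacylglycerol kinase gene, and *sh3pxd2b* (0.068), a gene of podosome scaffolds. The collagen XII genes were near each other (0.19), at rank 35 from *col12a1a* and rank 19 from *col12a1b*.

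The genes nearest to *tnmd* were *obsl1a* (0.29), a gene of the obscurin family, *cacng1a* (0.40), a muscle calcium channel subunit gene, and *chrng* (0.44), a gene for a muscle acetylcholine receptor subunit. *obsl1a* had 0 reads in both double negative libraries, against normalized read counts of 35.2 and 33.0 in Venus positive cells. *cacng1a* had 0.822 and 0 against 62.8 and 52.1, and *chrng* 0 and 1.02 against 55.3 and 36.4. All 3 are low genes whose distance from *tnmd* depends on the added count of 1, and they lie much lower than *tnmd* itself. Of 30 skeletal muscle genes, 4 were analysed here: *ttn.1* and *ttn.2* were higher in Venus positive cells, and *pvalb2* and *myf5* were lower, *myf5* with 0 reads in both Venus positive libraries. Their sum was 170 and 295 normalized read counts in double negative and 896 and 891 in Venus positive libraries, most of the latter from the very long titin genes. Per length the sum went the other way, from 19.96 TPM in double negative to 1.22 TPM in Venus positive cells (group means of the table). Nearly all of the 19.96 came from *pvalb2* (16.8) and *myf5* (3.045). *pvalb2* had 17.3 and 169 normalized read counts in double negative libraries 1 and 2, so the size of this sum rests largely on 1 uneven gene. Muscle genes outside the list are not part of it. Examples are *cacng1a*, *chrng*, *tnni2a.2*, *xirp2a* and *trim63b*, each higher in Venus positive cells. Muscle genes outside the list were not counted by direction. The sum therefore gives no direction for muscle RNA as a whole. The part of muscle RNA in the level of *tnmd* was not tested. Of the lists for cartilage (15 genes), bone (11 genes) and pericytes or smooth muscle (12 genes), 0 genes were analysed here. The same held for neurons and neural progenitors (16 genes) and macrophages (11 genes). Neural crest and pigment genes gave 4 of 12, with 3 lower and 1 higher, beside 35.8% lower and 64.2% higher of the 754 genes tested. Nothing is read from these counts either. Of 20 endothelial genes, 1 was analysed (*prox1a*, lower), so the mCherry gate could not be checked from these genes.

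For *itga11b* the nearest genes were *hsd17b3* (0.31), a steroid dehydrogenase gene, *fmoda* (0.32), which encodes the fibril-binding proteoglycan fibromodulin, and *obsl1a* (0.44). Among these, *fmoda* alone was abundant, with 1711 and 1672 normalized read counts in double negative cells against 34502 and 40001 in Venus positive cells. *hsd17b3* had 2.46 and 1.02 in double negative cells and *obsl1a* 0 and 0. The distances of *hsd17b3* and *obsl1a* from *itga11b* thus depend on the added count of 1. *itga11b* stood at rank 10 from *tnmd*, and *tnmd* at rank 41 from *itga11b* (0.70). The collagen XII genes were far from both, at ranks 188 and 226 from *tnmd* and 217 and 235 from *itga11b*. With 4 libraries in 2 groups, this measure is set largely by the size of the difference between the groups.

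Around the 4 genes, 139 other genes of tendon and collagen matrix were listed by role, and 23 of them were analysed here. All 23 were higher and 0 lower in Venus positive cells by the quasi-likelihood test of edgeR (Benjamini-Hochberg adjusted p), beside 64.2% of the 754 genes tested that were higher and 35.8% that were lower. Because every one of the 754 genes had been selected on this contrast and passed again, nothing is read from these counts about the lists. Their median log2 fold change was 2.69, against 2.39 over the 484 higher genes fitted. None of the 23 had a larger log2 fold change than *tnmd*, and 1 had a larger one than *itga11b*, while 16 exceeded *col12a1b* and 17 exceeded *col12a1a*. These places hold within the lists only, which do not cover every matrix gene of the table. *omd*, a proteoglycan gene outside them, had a log2 fold change of 6.11 (SE 1.22), above that of *tnmd*.

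By role, 2 of 14 transcription factor genes of tendon and head connective tissue were analysed, and both were higher. *mkxa*, the gene of the tendon regulator Mohawk, had 146 and 120 normalized read counts in double negative and 1264 and 1154 in Venus positive libraries (log2 fold change 3.18), and *six1a*, a gene for a homeodomain factor of muscle and mesenchyme, changed by 1.73. Of 11 listed fibrillar collagen genes, 3 were analysed, all higher, from *col11a1b* (2.31) to *col5a2a* (2.66). *col2a1b*, a fibrillar collagen gene of the table outside this list, changed by 1.49. Collagens V and XI set the diameter of fibrils, which is the scaffold that collagen XII decorates. Of 11 other FACIT collagen genes and 7 other BRICHOS domain genes, 0 were analysed here, so collagen XII and *tnmd* were the sole genes of these families with values.

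Matrix proteoglycan and glycoprotein genes gave 8 of 32, all higher, from *dcn* (decorin, 1.95) to *fmoda* (4.46), the gene above *itga11b*. *tnw*, which encodes tenascin W, was among them (2.77), as were 4 thrombospondin genes, with *thbs3b* (3.63) the largest. Of 14 other collagen receptor genes, 3 were analysed, all higher. These were *itga11a* (2.72), *ddr2a* (2.80), a receptor tyrosine kinase gene for fibrillar collagen, and *itgb1a* (1.71), one of the genes for the beta chain that pairs with integrin alpha 11. *itgb1a* had 185 and 303 normalized read counts in double negative cells against 1058 and 535 in Venus positive cells, and its log2 fold change was well below that of *itga11b*. Of 23 signal genes, 3 were analysed, all higher, from *tgfb3* (1.51) to *tgfb1a* (3.29), both genes of TGF-beta ligands, which induce matrix genes. Of 27 genes of collagen processing, 4 were analysed, all higher, from *loxl3b* (2.69), a crosslinking enzyme gene, to *bmp1a* (2.94), the gene of a procollagen protease.

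**Figure D4:**
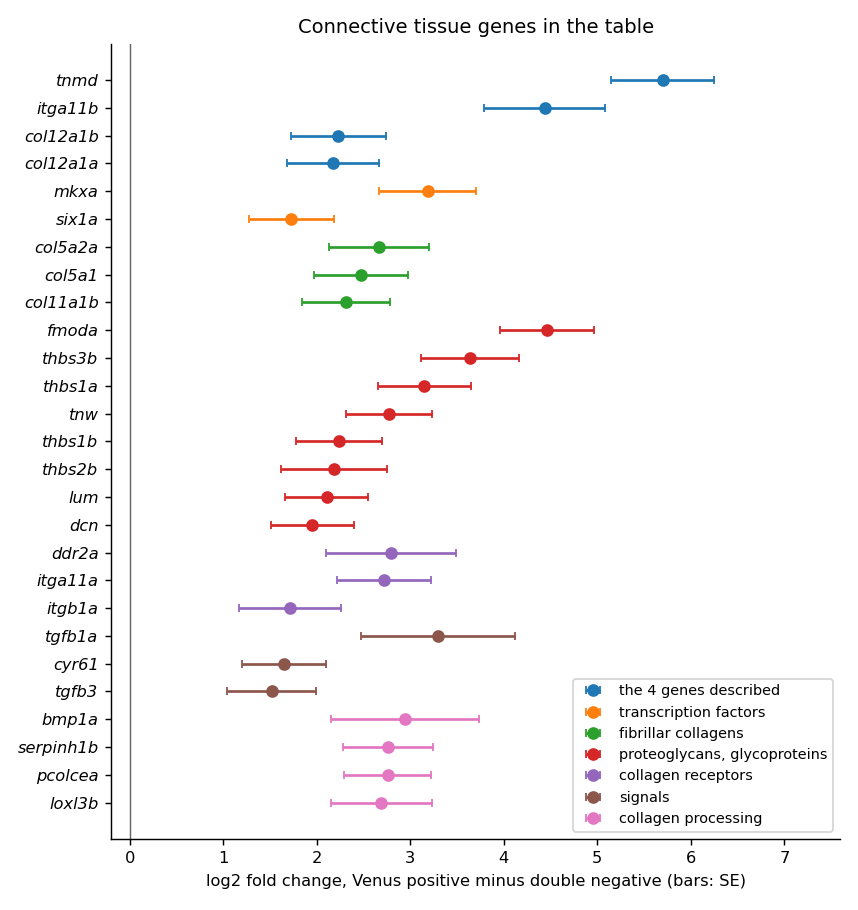
Log2 fold change, Venus positive minus double negative, of the 4 genes and of the 23 genes of the connective tissue lists analysed here, by role, with bars for the SE of the edgeR fit. *tnmd* (5.70) lies to the right of all 23, *itga11b* (4.43) beside *fmoda* (4.46), and both collagen XII genes (2.17 and 2.23) to the left of most.

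These calls depended on the size factors. With factors computed from the listed genes themselves by TMM or RLE, 5 and 4 of the 23 remained called, *fmoda*, *mkxa*, *thbs1a* and *thbs3b* under both and *serpinh1b* under TMM, and *cyr61*, *itgb1a*, *six1a* and *tgfb3* turned to below 0. Such factors centre a list in which most genes were higher, which moved the median log2 fold change of the 754 genes by -1.77 (TMM) and -1.87 (RLE), so genes with a smaller increase than this shift had to turn. Relative to the median of all 754 genes (1.85 with the authors' size factors), the log2 fold change was 3.85 for *tnmd*, 2.58 for *itga11b*, 0.32 for *col12a1a* and 0.37 for *col12a1b*. Subtracting the median removes a shift common to all genes, so these values hardly depend on the size factors by construction and are no check of the scaling. Without double negative library 1 the collagen XII genes came to lie just under the median, at -0.04 for *col12a1a* and -0.11 for *col12a1b*. That median (1.91) was over the 640 genes that still passed the count filter, so it is not of the same genes.

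**Figure D5:**
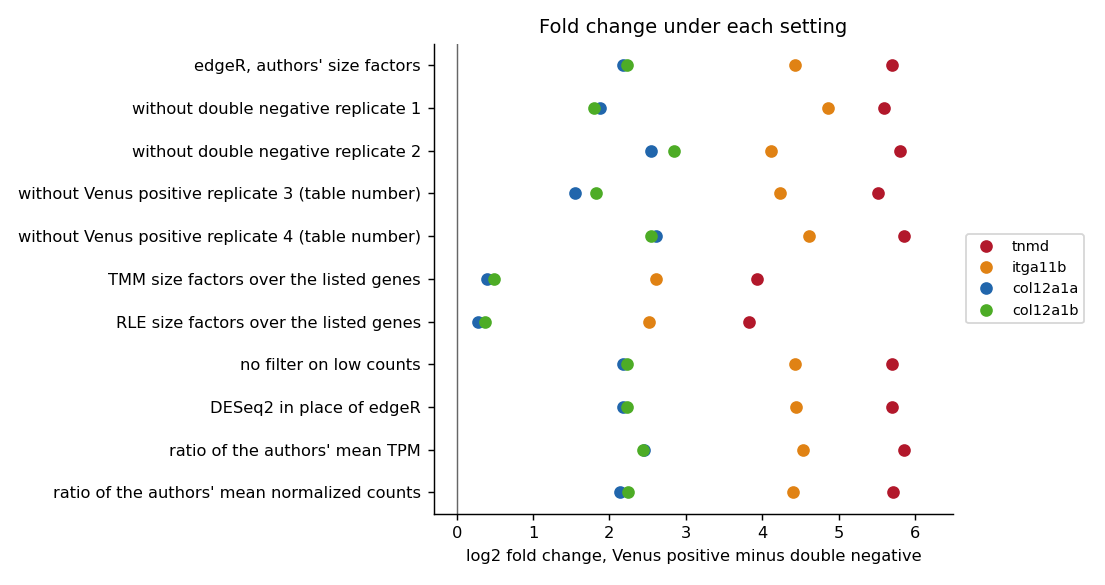
Log2 fold change of the 4 genes, Venus positive minus double negative, with the authors' size factors in edgeR and under each alternative setting. *tnmd* is the largest and *itga11b* the second in each setting, an order that other size factors, which shift all genes together, can hardly alter, while the collagen XII genes fall from 2.17 and 2.23 to 0.27 and 0.37 with RLE size factors from the listed genes.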

How the data were processed

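Smart-seq2 libraries of FACS-sorted cells were analysed from the table that the authors deposited. Per the study's methods, reads were filtered with SOAPnuke, mapped to GRCz11 with HISAT2 and aligned to the gene set with Bowtie2, and expression was estimated with RSEM. Versions in the submitters' processing notes were RSEM 1.2.28, HISAT2 2.0.4 and Bowtie2 2.4.4, beside DESeq2. Per library the authors deposited expected counts from RSEM, normalized counts (a signal: count divided by size factor) and TPM. Normalized counts and TPM per library were used for the double negative libraries only. Group averages of TPM and normalized counts are the authors' means. The deposited Q values (adjusted p-values of the authors' comparison) were read only to learn the threshold behind the list. The table's other comparison columns hold fold changes and p-values and were not used, nor were 8 per-library columns (FPKM of all libraries, and TPM and normalized counts of the Venus positive libraries). The Venus positive libraries are numbered 3 and 4 there and 1 and 2 in the labels, so their count columns alone were taken, as 2 libraries of the group that match no single label. Counts were raised to whole numbers. Size factors of the authors, recovered from the table, were 1.22 and 0.978 for double negative libraries 1 and 2. Those of Venus positive libraries 3 and 4 were 0.796 and 1.15, recovered from 7 genes in the study's source data. The plan had been to take all size factors from the table, but its normalized counts of these libraries were not used.

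The fit was edgeR 4.0.16 in R 4.3.3 (quasi-likelihood, two-sided, group as the sole term, threshold of 0.05 on the Benjamini-Hochberg adjusted p) over 754 genes that reached 10 counts in 2 or more libraries, and the biological coefficient of variation was 0.417. This fit was also run on simulated counts in which most genes were unchanged. The listed genes were all selected as changed, so that run does not check the fit on such a list. DESeq2 1.42.0, other size factors, no filter, left-out libraries and ratios of group means were tried as alternatives. Exact Poisson intervals used scipy 1.17.1. Each SE was the absolute log2 fold change divided by the square root of its F statistic, from a second edgeR fit without prior counts. The fit shares information on spread across genes, so an SE need not follow the spread between that gene's own libraries. The members and gene lists were chosen with earlier results of these data known. The genes named are the 4 members, *apln*, genes of the connective tissue lists with the largest and smallest change of each list, and the 3 genes with a pattern nearest to each member. Further list genes were named after their values were seen, as were *omd*, *col2a1b*, *tnni2a.2*, *xirp2a* and *trim63b*, which are outside the lists. Lists were matched by symbol or synonym through NCBI gene IDs, of which 737 were found in a RefSeq table of another assembly (GRCz12tu) used for names only.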

Additional observations from a re-analysis of the deposited data

How the results depend on the processing

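The log2 fold changes of *tnmd*, *itga11b*, *col12a1a* and *col12a1b* stayed above 0 under every alternative run. With TMM size factors from the listed genes they were 3.93, 2.61, 0.40 and 0.49, with 5 list genes and 84 of all genes higher. With RLE they were 3.82, 2.52, 0.27 and 0.37, with 4 list genes and 72 of all genes higher. DESeq2 gave 5.70, 4.44, 2.17 and 2.23, the ratio of mean TPM 5.86, 4.54, 2.46 and 2.44, and the ratio of the authors' mean normalized counts, an alternative chosen after seeing the data, 5.71, 4.40, 2.14 and 2.24. Leaving out 1 library at a time gave 5.52 to 5.86 for *tnmd*, 4.12 to 4.86 for *itga11b*, 1.55 to 2.60 for *col12a1a* and 1.80 to 2.85 for *col12a1b*. The list genes higher then numbered 21 to 23 and those lower 0 to 0. *itgb1a* lost its call without double negative library 1 or Venus positive library 3, *bmp1a* without Venus positive library 3, and *tgfb3* without Venus positive library 4. Over all genes, 400 to 448 were higher and 131 to 268 lower, against 484 and 270 with all libraries. The fewest lower calls came without double negative library 1 (138) or 2 (131). Only 640 genes still passed the count filter in each of these runs, against 754 with all libraries. Without Venus positive library 3 or 4, 728 genes passed it. The counts over all genes are thus not of the same genes, and a smaller count can reflect genes left untested. The paralog log2 ratio difference ran from -0.35 to 0.03. With 1 library left in a group, that library is assumed to vary like the other group. No paired analysis was possible because the Venus positive libraries carry the numbers 3 and 4 in the table but 1 and 2 in the labels. The few double negative reads of *tnmd* (55 and 51) and *itga11b* (50 and 24) limit the precision of their fold changes.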
